A study of Mus musculus with 6 samples.

Results

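The Dlk1-Dio3 domain microRNAs are the microRNAs encoded in an imprinted region of mouse chromosome 12, and 53 of the 375 microRNA assays on the card used here read them. The members were chosen by the number in the assay name, from a list of 45 microRNA numbers known to lie in the domain, and 40 of these numbers had at least 1 assay. Of the 53 assays, 47 carry a mouse name and 6 a rat name. The card also holds 6 control assays. The samples were the right dentate gyri of 6 male C57BL/6j mice aged 6 to 8 weeks, dissected 72 h after injection. In 3 mice repeated intraperitoneal low doses of kainic acid, a glutamate receptor agonist, had induced status epilepticus (KA-SE), and only mice with sustained severe seizures had been included. The other 3 mice received saline. Each library came from 1 mouse, the labels name no transgene or deletion, and the tissue was the whole dissected dentate gyrus with all of its cell types.

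In an imprinted region a gene is read from the chromosome of 1 parent. In the Dlk1-Dio3 domain the protein-coding genes Dlk1, Rtl1 and Dio3 are read from the paternal chromosome, and the long noncoding RNAs Meg3, Rian and Mirg, with the microRNAs along them, from the maternal one. A microRNA is cut from a hairpin precursor, from which the 5p arm, the 3p arm or both can be kept, and it represses messenger RNAs that pair with its seed, bases 2 to 8 from its 5′ end. Brain is known for high levels of these microRNAs. miR-134, one of them, is induced by neuronal activity and restrains dendritic spines in rat hippocampal neurons.

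The precursors of the mouse assays spanned 180.1 kb. RefSeq placed 38 hairpins on chr12:109563692-109743795 (GRCm38.p6), all on the plus strand, and 2 further precursors, miR-544 and miR-666, by their mature sequences. By RefSeq gene extents, miR-770 lay within Meg3, 9 precursors within Rtl1 and antisense to it (miR-493, miR-337, miR-540, miR-665, miR-431, miR-433, miR-127, miR-434 and miR-136), miR-370 within Rian and 7 within Mirg (miR-453, miR-154, miR-496, miR-377, miR-409, miR-369 and miR-410). The 22 others, from miR-379 to miR-668, lay outside these 4 gene models. A mature sequence was matched for 45 of the 47 mouse assays, 18 by the assay name and 27 by an arm taken from earlier nomenclature, since those assay names state no arm. miR-376c and miR-487b are named only.

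The 45 sequences had 45 different seeds, so a shared chromosomal origin did not come with a shared seed. The following are shown because the results turn on them, with the seed in capitals. First come the members with the earliest amplification:
miR-127: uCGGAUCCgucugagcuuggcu
miR-434-3p: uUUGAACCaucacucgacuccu
miR-382: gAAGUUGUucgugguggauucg
Next come pairs with seeds 1 base apart. The capitals of miR-379 and miR-411 differ in their first base, with bases 3 to 8 identical, and miR-376a and miR-376b also differ by 1 base within the seed:
miR-379: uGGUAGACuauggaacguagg
miR-411: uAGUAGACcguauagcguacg
miR-376a: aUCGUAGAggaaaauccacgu
miR-376b: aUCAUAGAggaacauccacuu
The following members had the smallest unadjusted p among those higher or lower after KA-SE, or were read in all mice of only 1 group:
miR-665: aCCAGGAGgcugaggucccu
miR-493: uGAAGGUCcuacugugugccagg
miR-381: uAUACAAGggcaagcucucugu
miR-540-5p: cAAGGGUCacccucugacucugu
miR-770-3p: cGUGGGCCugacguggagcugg
miR-494: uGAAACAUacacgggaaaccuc
miR-409-3p: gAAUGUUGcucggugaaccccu
miR-433: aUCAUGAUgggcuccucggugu
The last set includes the member with the lowest GC content and both arms of another precursor:
miR-369-3p: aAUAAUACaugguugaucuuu
miR-380-5p: aUGGUUGAccauagaacaugcg
miR-380-3p: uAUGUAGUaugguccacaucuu

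The measured value was the threshold cycle (Ct), the PCR cycle in which an assay's fluorescence passes a threshold. More RNA gives a lower Ct, and 40 stands for no amplification. A member counted as detected at a Ct below 35. In KA-SE replicates 1, 2 and 3, 48, 47 and 48 of 53 members were detected, against 48, 46 and 48 in saline replicates 1, 2 and 3. Across the 6 libraries 45 members were detected in all, 5 in some and 3 in none. The undetected members were miR-540-3p, miR-654-3p and miR-654-5p, each at Ct 40 in every library.

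Levels were taken within each library, as the Ct of the small nuclear RNA U6 minus that of the microRNA. If the product doubles with every cycle, 1 unit of level is a doubling, and differences of levels are log2 fold changes. U6 had a Ct of 13.2 ± 0.41 in KA-SE mice and 13.4 ± 0.49 in saline mice (SD, n = 3 each), which differ by -0.16 cycles (p = 0.7 in a two-sided exact permutation test, for which 3 mice against 3 cannot give a p below 0.1). Among the other controls, a plant microRNA assay meant to stay negative amplified at a Ct of 19.5 and 18.8 in KA-SE replicates 2 and 3, against 21.7 in saline replicate 2, and gave 40 in the remaining libraries. The neuron list (miR-124, miR-9, miR-128a, miR-137, miR-138 and miR-218) was detected throughout, with 6 of 6 members tested. Whether a microRNA changed within cells or the mixture of cells changed cannot be told apart in bulk tissue.

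Saline replicate 2 stood apart, and it bears on every comparison. The mean level of the 45 members was -10.38, -10.43 and -10.67 in the KA-SE replicates, against -10.82, -12.18 and -10.52 in saline replicates 1, 2 and 3. The low mean of saline replicate 2 was shared by the other 236 microRNAs tested, at -9.88, -9.88 and -10.10 in the KA-SE replicates, against -10.07, -11.73 and -10.02 in the saline replicates. Fold changes are therefore given with and without that library.

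**Figure D1:**
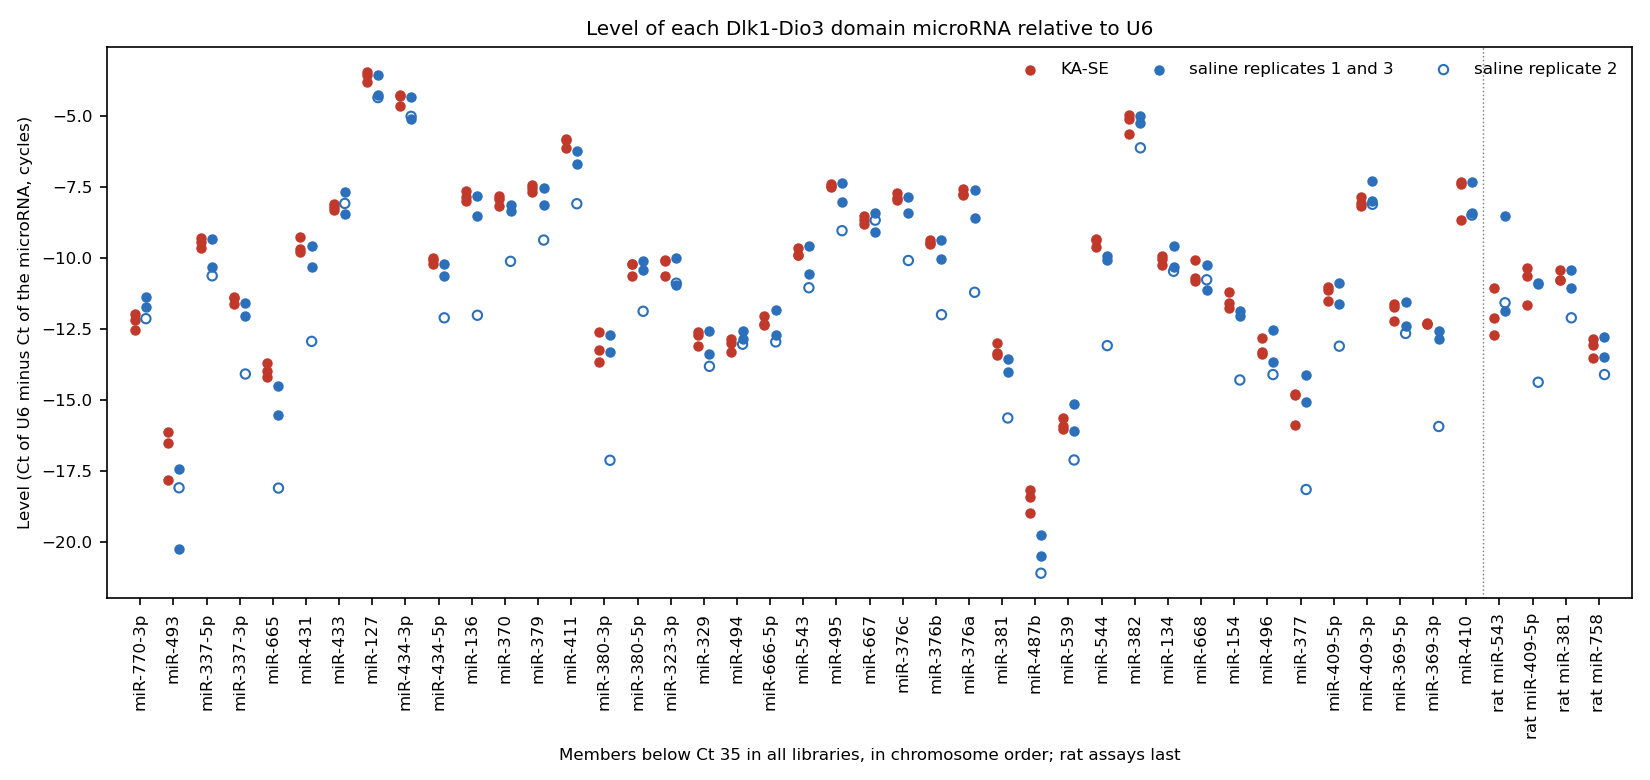
Level of each of the 45 members detected in all 6 libraries, as Ct of U6 minus Ct of the microRNA (y axis, cycles), in chromosome order with the rat assays last. Each point is 1 mouse, with KA-SE on the left and saline on the right of each position, and the open circles, saline replicate 2, lie below the other 5 points for 34 of 45 members (75.6%). Saline replicate 2 was also the lowest for 83.9% of the other 236 microRNAs.

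Among the members, those along Rtl1 gave the earliest and some of the latest signals. miR-127, which in mouse is fully complementary to Rtl1 and directs cleavage of its transcript, had the lowest mean Ct of the domain, 16.8 ± 0.43 in KA-SE mice and 17.4 ± 0.68 in saline mice (SD, n = 3 each). Its neighbour miR-434-3p, another of the microRNAs antisense to Rtl1, followed with 17.6 ± 0.48 in KA-SE mice and 18.2 ± 0.61 in saline mice (SD, n = 3 each). Among the members of this stretch detected in all 6 libraries, miR-493 came latest. Its Ct was 30.04 ± 1.24 in KA-SE mice and 31.98 ± 1.65 in saline mice (SD, n = 3 each). Ct also depends on the assay, so the order of members is not strictly one of abundance. Between miR-379 and miR-410, the earliest was miR-382, with 18.4 ± 0.64 in KA-SE mice and 18.8 ± 1.0 in saline mice (SD, n = 3 each). miR-411, miR-495, miR-409-3p, miR-410, miR-379 and miR-376c of the same stretch, and miR-433 of the Rtl1 stretch, complete the 10 members of lowest mean Ct, whose means over the 6 libraries lay between 17.1 for miR-127 and 21.6 for miR-376c. From miR-495 (21.1) to miR-376c (21.6) these means lay closer together than the SD of either in saline mice (1.20 for miR-495 and 1.55 for miR-376c, n = 3 each).

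No member passed the test after KA-SE. The 281 microRNAs detected in all 6 libraries were compared with limma, with Benjamini-Hochberg adjustment over all of them. A microRNA was called where the adjusted p was under 0.05 and the fold change reached 1.5. In that fit 0 of 45 members and 0 of 281 microRNAs (0.0%) were called, and the smallest adjusted p was 0.556 (limma). On simulated data the fit of all 6 libraries called 7.7% of 2-fold and 44.3% of 4-fold changes. Without saline replicate 2 it called 60.3% and 89.3%. That no member was called therefore does not show that no member changed. At an unadjusted p under 0.05, limma had 2 members higher, miR-487b and miR-665, and 0 lower, where 2.49% of all microRNAs tested were higher and 0.356% lower. Without saline replicate 2 these counts were 3 members higher and 1 lower, beside 6.05% and 2.49% of all microRNAs. With saline replicate 1 or saline replicate 3 left out instead, 5 members were higher each time, beside 11% and 8.19% of all microRNAs. In the methods' t-test 1 member was higher at an unadjusted p under 0.05, beside 2.14% of all, 0 were lower, and 0 passed after adjustment.

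Over U6 the log2 fold change was positive for 40 of 45 members (88.9%), with a median of 0.62, beside 245 of 281 microRNAs (87.2%), also with a median of 0.62. Without saline replicate 2 it was positive for 32 members, with a median of 0.19, beside 176 of 281 microRNAs with a median of 0.12. When the level was instead taken relative to the mean of all microRNAs tested in the same library (the global mean), 20 members were positive and the median was -0.04, the same median as over all 281. On each scale the median of the members lay close to that of all microRNAs tested.

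By place in the domain, the 11 tested members from Meg3 through the Rtl1 stretch had a median log2 fold change over U6 of 0.89, with 9 positive, and of 0.34, again with 9 positive, without saline replicate 2. The Rian member miR-370 had 0.91, and 0.28 without that library. The 33 tested members from miR-379 to miR-410, the rat assays among them, had a median of 0.54 with 30 positive, and of 0.09 with 22 positive without saline replicate 2. The positive share of the 281 microRNAs over U6 was 87.2%. Relative to the global mean the first stretch had a median of 0.23 with 6 of 11 positive, miR-370 had 0.25, and the stretch from miR-379 to miR-410 turned to -0.11 with 13 of 33 positive, beside 45.9% of all microRNAs. These medians describe the stretches and the difference between them was not tested.

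**Figure D2:**
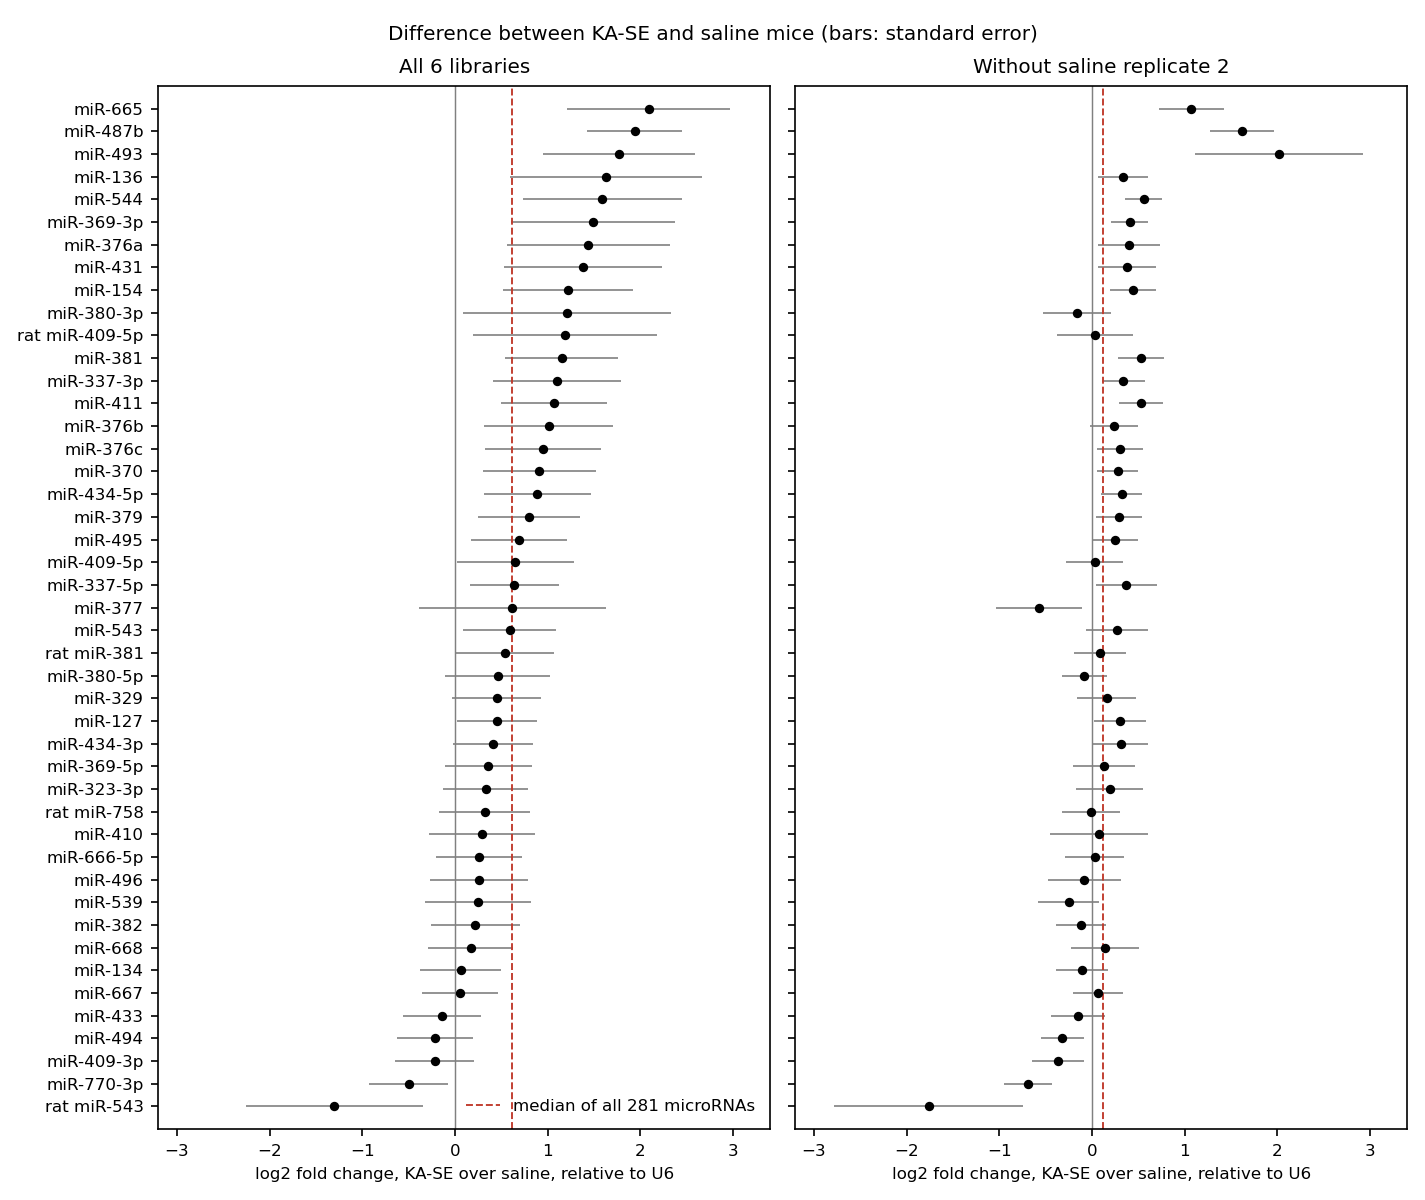
Log2 fold change of KA-SE over saline relative to U6 (x axis) for the 45 members, with all 6 libraries on the left and without saline replicate 2 on the right. Points are limma estimates, bars are standard errors, and the dashed line is the median of all 281 microRNAs, 0.62 on the left and 0.12 on the right.

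The direction of a member depended on the reference and on saline replicate 2 for 22 of 45 members. Over 4 settings (U6 or global mean, with or without saline replicate 2), 18 members had a higher level after KA-SE in each setting and 5 a lower one, beside 103 and 35 of the 281 microRNAs tested (36.7% and 12.5%). The 18 were miR-665, miR-493, miR-431, miR-337-3p, miR-136 and miR-434-5p of the Rtl1 stretch, miR-370, and 11 members between miR-379 and miR-410, among them miR-376a, miR-376b and miR-376c. The 5 were miR-770-3p, miR-433, miR-494, miR-409-3p and the rat assay for miR-543.

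miR-487b had the smallest p of all 281 microRNAs and sat near the detection limit. Its level was -18.18, -18.41 and -18.98 in the KA-SE replicates, against -20.51, -21.10 and -19.76 in the saline replicates. The groups did not overlap, and saline replicate 2 lay only a little below the other saline mice. The log2 fold change was 1.94 (standard error 0.51, limma adjusted p = 0.556), and 1.62 (standard error 0.35, adjusted p = 0.345) without saline replicate 2. In raw Ct it stood at 30.96, 31.98 and 32.31 cycles after KA-SE, against 33.41, 34.97 and 33.17 cycles in the saline replicates, so that 1 saline value stood at the limit itself. With a limit of Ct 32 miR-487b was no longer among the microRNAs tested.

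miR-665, cut from a hairpin close to those of miR-337 and miR-540 in the Rtl1 stretch, was the other member with an unadjusted p under 0.05. Its level was -13.71, -13.99 and -14.17 in the KA-SE replicates, against -14.51, -18.10 and -15.53 in the saline replicates. Every KA-SE value was above every saline value, and the saline values spread over several cycles. The log2 fold change was 2.09 (standard error 0.88, limma adjusted p = 0.556), and 1.07 (standard error 0.35, adjusted p = 0.509) without saline replicate 2. Its neighbour miR-540-5p was read in all 3 KA-SE mice, with a Ct of 26.05, 26.98 and 27.04, against 27.08, 38.83 and 29.03 in the saline replicates. It missed the limit in saline replicate 2 and so was left out of the fit of all 6 libraries. With detection taken over the other 5 libraries, its log2 fold change was 1.45 (standard error 0.46, limma adjusted p = 0.526 over 293 microRNAs). For both miR-665 and miR-540-5p saline replicate 3 also came after saline replicate 1.

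miR-493, at the 5′ end of the same stretch, had a level of -16.13, -17.80 and -16.52 in the KA-SE replicates, against -17.44, -18.09 and -20.24 in the saline replicates. KA-SE replicate 2 lay below saline replicate 1, so the groups overlapped, and here saline replicate 3 was the lowest. The log2 fold change was 1.77 (standard error 0.82, limma adjusted p = 0.556), and 2.02 (standard error 0.91, adjusted p = 0.509) without saline replicate 2. Without saline replicate 3 it was 0.95. miR-411, which shares seed bases 3 to 8 with miR-379, had a level of -5.79, -5.85 and -6.13 in the KA-SE replicates, against -6.69, -8.08 and -6.22 in the saline replicates. The groups did not overlap, though KA-SE replicate 3 and saline replicate 3 were close. Its log2 fold change was 1.07 (standard error 0.57, limma adjusted p = 0.556), and 0.53 (standard error 0.24, adjusted p = 0.509) without saline replicate 2. miR-379 itself had -7.53, -7.42 and -7.66 in the KA-SE replicates, against -8.12, -9.36 and -7.54 in the saline replicates, and the groups overlapped. miR-381 had -13.42, -12.99 and -13.35 in the KA-SE replicates, against -14.02, -15.63 and -13.55 in the saline replicates, again without overlap. Here the difference was 1.15 (standard error 0.61) with all libraries and 0.53 without saline replicate 2. The rat assay for miR-381 had overlapping groups and a log2 fold change of 0.54 (standard error 0.53), or 0.09 without saline replicate 2, and its sign turned relative to the global mean (-0.11).

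At the lower end no difference passed the test either. miR-770-3p, from within Meg3, had a level of -12.54, -11.98 and -12.18 in the KA-SE replicates, against -11.72, -12.13 and -11.36 in the saline replicates. Saline replicate 2 alone made the groups overlap. The log2 fold change was -0.50 (standard error 0.43, limma adjusted p = 0.556), and -0.69 (standard error 0.26, adjusted p = 0.509) without saline replicate 2. Without saline replicate 3 it was -0.31. miR-494 had -12.84, -12.97 and -13.29 in the KA-SE replicates, against -12.85, -13.03 and -12.57 in the saline replicates, and the values of the groups interleaved. Its log2 fold change was -0.21 (standard error 0.41), or -0.32 with saline replicate 2 left out. For miR-409-3p it was -0.22 (standard error 0.43), or -0.37, and for miR-433 it was -0.14 (standard error 0.42), or -0.15, and the groups overlapped for both. The rat assay for miR-543 had -11.04, -12.11 and -12.70 in the KA-SE replicates, against -8.52, -11.57 and -11.86 in the saline replicates, which gives -1.30 (standard error 0.95) on the log2 scale, or -1.76 with saline replicate 2 left out. Saline replicate 1 was the highest by several cycles, and without it the value was -0.24. The mouse assay gave 0.59 (standard error 0.50), or 0.27.

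Of the remaining representatives of the domain, miR-134, known for its response to neuronal activity, had a level of -10.02, -9.92 and -10.24 in the KA-SE replicates, against -10.32, -10.46 and -9.58 in the saline replicates. All KA-SE values lay inside the saline range. The log2 fold change was 0.06 (standard error 0.44), and -0.11 (standard error 0.28) without saline replicate 2. The other members that amplified early had overlapping groups too. The log2 fold change was 0.45 (standard error 0.43) for miR-127, 0.41 (0.43) for miR-434-3p, 0.22 (0.48) for miR-382, 0.69 (0.52) for miR-495, 0.29 (0.57) for miR-410, 0.80 (0.55) for miR-379 and 0.95 (0.63) for miR-376c. With saline replicate 2 left out the same members, in the same order, had 0.30, 0.31, -0.12, 0.25, 0.08, 0.29 and 0.30.

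The number of members whose groups did not overlap depended on the reference and on the libraries. Over U6, 7 of 45 members (15.6%) had every KA-SE value above every saline value, beside 19.2% of all microRNAs tested, and 0 members had the reverse, beside 1.42%. Those 7 were miR-154, miR-369-3p, miR-381, miR-411, miR-487b, miR-544 and miR-665. Without saline replicate 2, these counts were 7 higher and 1 lower, miR-770-3p, beside 19.6% and 8.9%. Without saline replicate 3, 28 of 45 members (62.2%) were above, beside 51.2% of all microRNAs, and without KA-SE replicate 3, 13 members (28.9%), beside 31.7%. With the snoRNAs on the card as the reference 14 members (31.1%) were above, beside 14.6%. Relative to the global mean, 9 members (20%) were above, beside 12.8% of all, and 4 members (8.89%) were below, beside 12.1%. Leaving saline replicate 2 out kept the same 9 and 4 members, beside 16% and 15.3%, and leaving a library out cannot end a separation. The 6 members that were above on both scales were miR-154, miR-369-3p, miR-411, miR-487b, miR-544 and miR-665, and the 4 below relative to the global mean were miR-380-5p, miR-409-3p, miR-494 and miR-770-3p.

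The mean of the 45 members in each library can also serve as the reference, which removes what the members of a library share. On that scale, added after the data were seen, 8 of 45 members (17.8%) had every KA-SE value above every saline value, beside 7.83% of all microRNAs, and 6 members (13.3%) had the reverse, beside 16.7%. The reference is made of the members' own values, and the share over all microRNAs includes the members. The shares are therefore not like for like, and no excess of members can be read from them. Of these, miR-487b stood at -7.80, -7.98 and -8.31 in the KA-SE replicates, against -9.70, -8.92 and -9.25 in the saline replicates, which differ by 1.26 (standard error 0.29). miR-770-3p stood at -2.16, -1.55 and -1.51 in the KA-SE replicates, against -0.91, 0.05 and -0.84 in the saline replicates, which differ by -1.17 (standard error 0.35). The groups of both were apart, as for each of the other members counted, with saline replicate 2 on the far side from KA-SE for miR-770-3p and nearest to KA-SE for miR-487b. miR-411 stood at 4.59, 4.58 and 4.54 in the KA-SE replicates, against 4.13, 4.09 and 4.30 in the saline replicates, where saline replicate 2 no longer stood apart from the other saline mice. No member passed limma's adjusted test on this scale either (smallest adjusted p = 0.415).

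**Figure D3:**
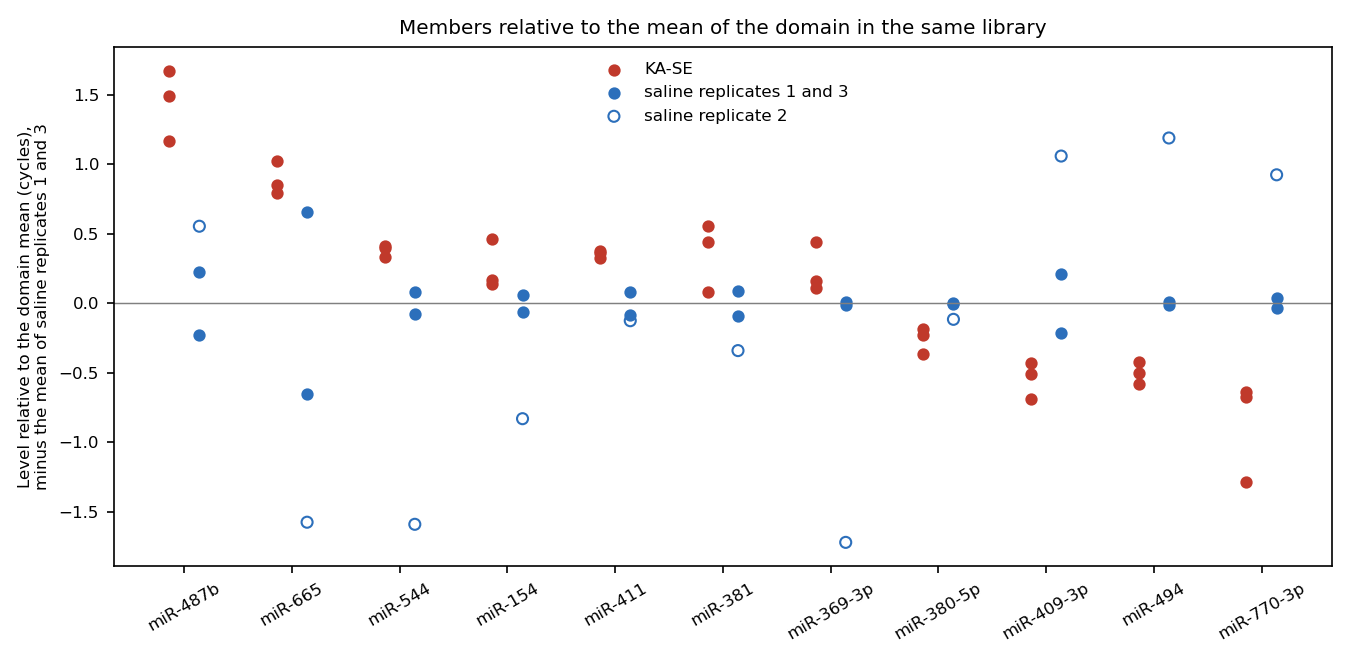
Level of 11 members relative to the mean of the 45 members in the same library, minus the mean of saline replicates 1 and 3 (y axis, cycles). Each point is 1 mouse and the members were picked after their values were seen, for groups that did not overlap over U6 or that were lower relative to the global mean. The KA-SE points lie apart from all saline points for 10 of the 11 members, all but miR-381, and on this scale 7.83% of all microRNAs tested were higher and 16.7% lower in this way. The members shown were picked for groups apart on another scale, and the reference is made of the members themselves. These shares are therefore not a like-for-like background for the 10 of 11.

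The spread of a member differed between the groups. The SD of the level had a median over members of 0.22 in KA-SE mice and 0.93 in saline mice (n = 3 each), or 0.49 over saline replicates 1 and 3 alone. The gap between the highest and the lowest mouse exceeded 1 cycle for 6 members in the KA-SE group, the widest being miR-493 with 1.67, and for 35 members in the saline group, the widest being miR-380-3p with 4.41. Without saline replicate 2 it exceeded 1 cycle for 5 members in the saline group, the widest being the rat assay for miR-543 with 3.34. That gap is between 2 mice and tends to be narrower than a gap over 3. Over all 3 mice the narrowest gaps were 0.04 for miR-369-3p in the KA-SE group and 0.46 for miR-494 in the saline group. Between saline replicates 1 and 3 the narrowest was 0.04, for the rat assay for miR-409-5p. The other 236 microRNAs had median SDs of 0.20 in KA-SE mice and 1.03 in saline mice, or 0.31 over saline replicates 1 and 3.

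The delay of saline replicate 2 was not equal across members. Set against saline replicates 1 and 3 averaged, its raw Ct was later for 44 of 45 members. The median delay was 2.10 cycles (quartiles 1.35 and 3.00), and U6 and 4 other controls were later by 0.60 to 0.86 cycles. The other microRNAs shared the delay, with a median of 2.30 cycles and 232 of 236 later. The longest delays were 4.86 cycles for miR-380-3p and 4.59 for miR-136, and the shortest were -0.02 for miR-493 and 0.66 for miR-667. Over the 39 members with a mature sequence, the delay went with a lower GC content of the microRNA (Pearson r = -0.49, Spearman rho = -0.52, across members, which share the libraries and are not independent). The median delay was 3.02 cycles for 13 members under 45% GC, 1.72 for 16 members from 45% to 55% and 1.28 for 10 members of 55% or more. The contrast is visible in the sequences given above, between miR-369-3p, with 23.8% GC and a delay of 3.95 cycles, and miR-770-3p, with 72.7% GC and 1.32 cycles. Exceptions were miR-431, miR-665 and miR-370, rich in GC and delayed by 3.71, 3.81 and 2.61 cycles. Exceptions in the other direction included miR-410, with 38.1% GC and 1.35 cycles, and miR-329, with 40.9% GC and 1.58 cycles. For the 13 members whose assay name states the arm, r was -0.71, and for 46 other microRNAs with an exact RefSeq name it was -0.39. What set the delay was not tested.

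**Figure D4:**
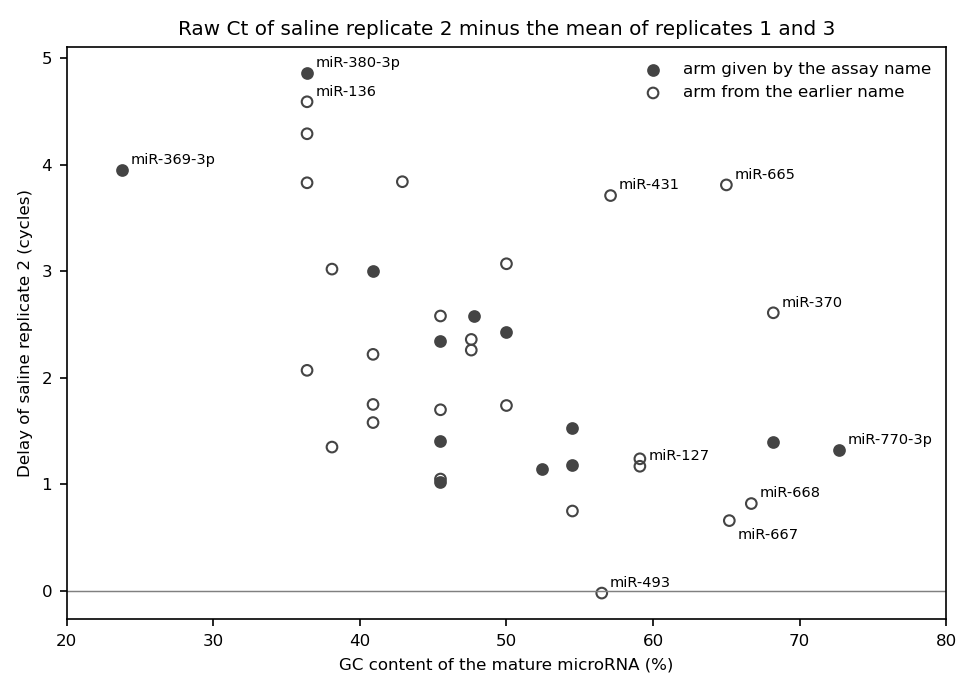
Delay of saline replicate 2, as its raw Ct minus the mean of saline replicates 1 and 3 (y axis, cycles), against the GC content of the mature microRNA (x axis, percent) for 39 members. Filled points have the arm in the assay name, and the longest delays lie at low GC. Exceptions include miR-431, miR-665 and miR-370 at high GC, and miR-410 and miR-329, with short delays at low GC.

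Saline replicate 3 differed from saline replicate 1 in some of the same members. Its raw Ct was later by over 1 cycle for 7 members, the rat assay for miR-543, miR-493, miR-665, miR-376a, miR-377, miR-136 and miR-380-3p, while the median over the 45 members was -0.14 cycles. The median delay of saline replicate 2 for those 7 was 3.84 cycles. Across the 45 members the 2 differences had a Spearman rho of 0.54 and a Pearson r of 0.26. The libraries they rest on are the same 3 saline mice, so this describes those mice.

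Where both arms of a precursor were read, their Ct difference within a library needs no reference RNA. This held for miR-337, miR-369, miR-380, miR-409 and miR-434. The 5p arm of miR-434 came later than its 3p arm by 5.76, 5.74 and 5.55 cycles in the KA-SE replicates, against 5.52, 7.10 and 5.87 cycles in the saline replicates. The 5p arm of miR-409 came later than its 3p arm by 2.95, 3.29 and 3.36 cycles in the KA-SE replicates, against 3.63, 5.01 and 3.57 cycles in the saline replicates. Here every KA-SE value was below every saline value, by -0.87 cycles on average (p = 0.1, the smallest possible in this two-sided exact permutation test, and 0.5 after adjustment over the 5 precursors), or -0.40 without saline replicate 2.

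For the other 3 precursors the 5p arm came first. The Ct of 5p minus 3p was -1.99, -2.08 and -1.98 for miR-337 in the KA-SE replicates, against -1.74, -3.46 and -2.24 in the saline replicates. For miR-369 it was -0.69, -0.59 and -0.07 in the KA-SE replicates, against -0.45, -3.28 and -1.01 in the saline replicates. For miR-380 it was -2.41, -3.46 and -2.61 in the KA-SE replicates, against -2.31, -5.25 and -3.19 in the saline replicates. The groups overlapped for all 3 and for miR-434, with adjusted p of 0.7 each from the exact permutation tests. In all 5 precursors the later arm was the one more delayed in saline replicate 2, and in 4 of 5, all but miR-434, that arm was also the one of lower GC content.

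**Figure D5:**
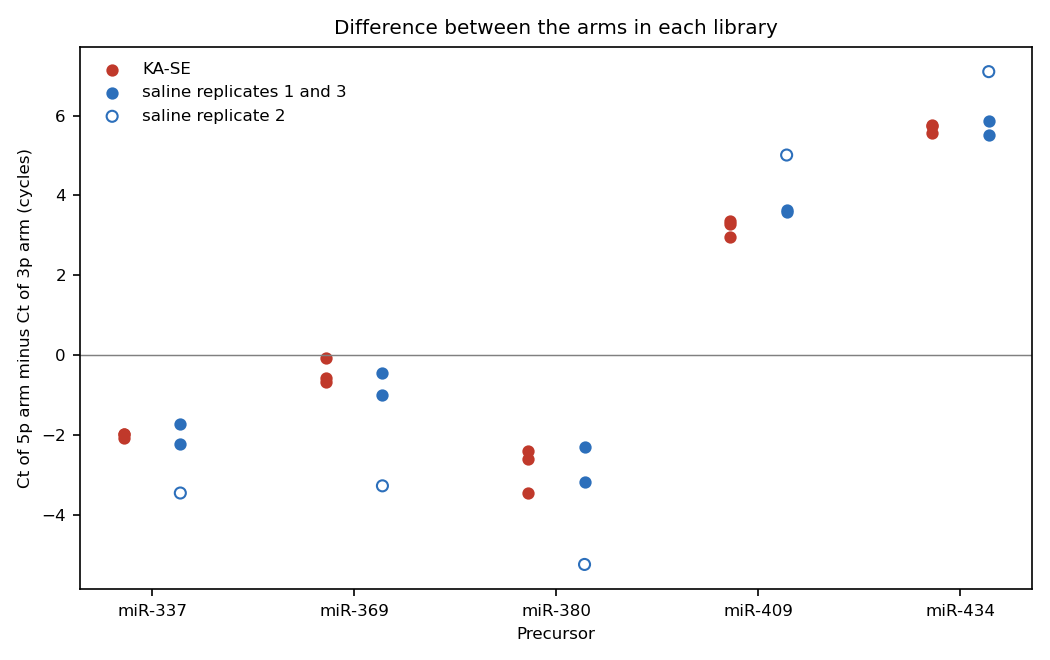
Ct of the 5p arm minus Ct of the 3p arm in each library (y axis, cycles) for the 5 precursors with both arms detected throughout. Each point is 1 mouse, and saline replicate 2, the open circle, lies farthest from 0 in all 5.

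Rat and mouse assays of the same microRNA name could be compared within each library. No rat sequence was matched, so whether both assays of a name read the same arm or sequence was not tested. The rat assay for miR-381 came earlier than the mouse assay in every library, with differences of -2.66, -2.59 and -2.58 cycles in the KA-SE replicates and -2.97, -3.54 and -3.14 cycles in the saline replicates. The difference was wider in every saline mouse than in every KA-SE mouse. For miR-543 the rat assay minus the mouse assay was 1.17, 2.46 and 2.82 cycles in the KA-SE replicates and -2.04, 0.53 and 2.29 cycles in the saline replicates, so that the 2 assays did not follow each other. For miR-409-5p the difference ran between -0.66 and 0.13 cycles in the KA-SE replicates and between -0.77 and 1.27 cycles in the saline replicates.

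The remaining members were read in part of the libraries. The rat assay for miR-673 had a Ct of 31.96, 33.89 and 40 in the KA-SE replicates, against 30.39, 31.03 and 30.22 in the saline replicates, and was the member detected throughout the saline group only. The rat assay for miR-377 was detected in KA-SE replicates 1 and 3, at 31.43 and 31.11, and in saline replicate 1, at 30.33. miR-679 was detected only in KA-SE replicate 3, at 29.996, and miR-453 only in saline replicate 3, at 28.34, with 40 in every other library. A Ct near 30 in 1 mouse beside no amplification in the others was thus seen in both groups.

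Marker lists of other cells had positive medians over U6 as well. The 281 microRNAs tested had a median of 0.62 with 87.2% positive, and of 0.12 without saline replicate 2. For the 8 lists of neuron, activity-regulated, microglia and leukocyte, erythrocyte, endothelium, oligodendrocyte, choroid plexus and ependyma, and astrocyte and gliosis microRNAs, 0 members were called. Of these the neuron list had a median log2 fold change of 1.06, with 6 of 6 positive, and of 0.34 without saline replicate 2, and its summed level relative to U6 was 0.869 to 0.990 in KA-SE mice and 0.140 to 0.776 in saline mice. The activity-regulated list, which includes miR-134, had a median of 0.59, with 3 of 3 positive, and of 0.37 without that library. The microglia and leukocyte list had 1.15, with 4 of 5 positive, and 0.60 without that library, with a summed level of 0.0420 to 0.0502 in KA-SE mice and 0.0405 to 0.0588 in saline mice. Of the others, the erythrocyte list had only 1 microRNA tested, miR-451, with 0.70 (0.01 without saline replicate 2). With 2 microRNAs tested in each, the medians were 0.60 for endothelium (-0.05) and 1.44 for oligodendrocyte (0.26), all positive over U6. They were 0.99 for choroid plexus and ependyma (0.10), with 4 of 5 positive, and 0.76 for astrocyte and gliosis (0.22), with 4 of 4 positive. Besides the neuron list, the list named astrocyte and gliosis had summed levels apart between the groups. It holds miR-21, miR-146a, miR-143 and miR-145, whose cells of origin were not tested here. Its summed level was 0.0644 to 0.0708 in KA-SE mice and 0.0346 to 0.0627 in saline mice. The summed levels of the remaining lists overlapped. Taken singly, 19.2% of the 281 microRNAs tested also had every KA-SE value above every saline value over U6, so such a gap was not particular to these lists. The part of the lists in the members' values was not tested.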

How the data were processed

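The authors reverse transcribed 800 ng of total RNA per mouse with Megaplex primers and ran 1 TaqMan card per mouse. They deposited raw Ct values and Ct values relative to a reference, both in other units than counts, and a table of fold changes that was not used. The methods name RNU6B as the reference, for which the card used here shows no assay, so MammU6 was taken. The software that set the thresholds is not given in the sources used here. In the deposited normalized table, only 4 of 45 members in each KA-SE library and 14 or 15 in each saline library equal the raw Ct minus 1 constant (tolerance 0.0015 cycles), so raw Ct was the main input.

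Levels were compared with limma 3.58.1 in R 4.3.3, without a block, over microRNAs below Ct 35 in all 6 libraries. For single values, two-sided exact permutation tests were run (scipy 1.17.1). The fit was tested on simulated data. Members and lists were chosen with earlier results of these data known. Named members are the 5 with the smallest p in each direction (none was called), the 10 of lowest mean Ct, those detected throughout 1 group and in fewer mice of the other, and representatives of the domain. Other members are named after their values were seen. Alternatives were other references (global mean, snoRNAs, the deposited normalized table, none), a replicate block, leaving out each library, limma with trend and robust variances, the methods' t-test, no fold change limit, and stricter or looser detection. The domain mean as reference, and saline replicate 2 left out together with another choice, were added after the data were seen. Ct has no read depth, so 3 mice per group limit the precision.

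Mature sequences and positions came from RefSeq (GRCm38.p6), with seeds capitalised here. The rule's numbers 299, 300, 412, 485 and 541 had no assay in the table and were not analysed here, and further domain microRNAs outside the rule had 0 assays.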

Additional observations from a re-analysis of the deposited data

How the results depend on the processing

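No member was called in any setting run. The median log2 fold change of the members over U6, 0.62, was -0.04 with the global mean, 0.51 with the snoRNAs, 0.78 in raw Ct and 0.54 in the authors' normalized table, and ran between 0.19 and 0.97 when 1 library was left out, lowest without saline replicate 2 and highest without saline replicate 3. Without saline replicate 2 it was 0.09 with the global mean, 0.07 with the snoRNAs, 0.11 in raw Ct and 0.14 in the normalized table. Among named members, miR-487b, miR-665, miR-493, miR-411, miR-381, miR-379, miR-376c and miR-495 were higher, and miR-770-3p, miR-494 and the rat assay for miR-543 lower, in each setting run for them. With the global mean, the sign turned for miR-127 (-0.21), miR-434-3p (-0.25), miR-382 (-0.44), miR-410 (-0.37) and miR-134 (-0.59), and with the domain mean for the same members (-0.23, -0.27, -0.46, -0.39 and -0.62). Without saline replicate 2 it turned for miR-382 (-0.12, with the domain mean -0.30, with the global mean -0.22), for miR-134 (-0.11, -0.28 and -0.21) and for miR-410 only with the domain mean (-0.10) or the global mean (-0.02). miR-134 also turned with the snoRNAs (-0.05), in the normalized table (-0.01), and without saline replicate 1 (-0.04) or KA-SE replicate 2 (-0.01). Leaving out single libraries moved miR-134 between -0.11 and 0.33, miR-382 between -0.12 and 0.45 and miR-433 between -0.33 and 0.06. miR-433 turned in raw Ct (0.02), in the normalized table (0.07) and without saline replicate 3 (0.06), and miR-409-3p without saline replicate 3 (0.03). The cause was not tested. The difference between arms, KA-SE minus saline, turned without saline replicate 2 for miR-337 (-0.03) and miR-380 (-0.08), over ranges of -0.03 to 0.83 and -0.08 to 1.39 when single libraries were left out. The U6 difference ran between -0.41 and 0.08 cycles with single libraries left out, and was 0.06 with KA-SE replicate 1 left out.

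With the replicate number as a block, 0 members were called, the median stayed at 0.62 and 5 members instead of 2 had an unadjusted p under 0.05 (limma, smallest adjusted p among members 0.304), 11.1% of members beside 10.7% of all microRNAs. Over all 281 microRNAs the smallest limma adjusted p was 0.0502 with the block, just above the threshold, against 0.556 without it. Deviations of libraries with the same number correlated at 0.189, 0.236 and 0.047 for numbers 1, 2 and 3, so the numbers were not taken to pair the mice, although each library correlated best with its own number.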

Other observations

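Over U6 the mean level of the members followed that of the other microRNAs across the 6 libraries (Pearson r = 0.99, a description set by saline replicate 2), and the microRNAs outside the domain nearest to it by the same measure were miR-148b, miR-1, miR-542-3p, let-7i and miR-340-3p. Relative to the global mean the nearest were miR-504 with 0.93, miR-181c with 0.90, miR-685 with 0.88, miR-652 with 0.84 and miR-30a with 0.82 over 6 libraries.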
